A study of Mus musculus with 10 samples.

Results

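The matricellular proteins of the joint matrix, 10 genes in all, were described in the synovium of mice with antibody-induced arthritis. They are the tenascins Tnc and Tnxb, the thrombospondins Thbs1, Thbs2, Thbs3 and Thbs4, fibronectin (Fn1), periostin (Postn), osteonectin (Sparc) and the cartilage intermediate layer protein Cilp. All 10 had a higher mean in mice given maslinic acid than in mice given vehicle, and none passed the test across all probe sets. Tnc, Thbs2 and Sparc had the largest differences, of 1.76, 1.47 and 1.35 SDs. Of all genes 47.9% had a higher mean, and of genes with 10 distinct values over the arrays, as these have, 60.2% did. Without 2 vehicle mice that stood apart over the whole table, 9 of the 10 means were higher. The genes were chosen by name. A gene is represented by the probe set (a group of short probes for 1 transcript) that names it alone and has the highest mean over the arrays. The 10 genes had 16 such probe sets among the 39993 of the value table, which stand for 18128 genes.

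The 10 arrays came from 10 male DBA/1J mice, labelled as 8 weeks old, all with collagen antibody-induced arthritis. This model starts with antibodies against type II collagen (here 1 mg into the abdomen on day 8), and lipopolysaccharide (25 µg on day 11) strengthens it. Left hind leg synovium was taken on day 12, after muscle and skin around it had been cleaned away. The vehicle group (5 mice) received corn oil by mouth, and the maslinic acid group (5 mice) received this plant triterpene in corn oil, 200 mg per kg of body weight each day. The 5 mice of each group were picked from larger groups by a criterion that the labels do not give, and healthy mice were not analysed here. A mouse gave 1 Affymetrix mouse genome array, and the number of arrays limits the precision.

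Matricellular proteins are secreted into the matrix but act more as signals than as scaffold: they bind integrins, growth factors and collagen, and are typically made in development, loading and repair. Tenascin C also activates Toll-like receptor 4, thrombospondin-1 can activate latent TGF-beta, and fibronectin forms the first fibrils on which other matrix is laid down. In joints, tenascin C and fibronectin accumulate in inflamed synovium, periostin and osteonectin are abundant in bone and periosteum, tenascin X and thrombospondin-4 are typical of tendon and other dense connective tissue, and Cilp is a matrix protein of articular cartilage that is also found in tendon.

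Stretches before the gene starts are shown because 3 of these genes share a short motif there. RefSeq's mouse table (build GRCm38.p6) held 10 starts for 8 of the 10 genes; Fn1 and Thbs1 had no entry. In the 100 bases before a start, the motif TATATAA, a form of the TATA box, was found on the gene's strand at 3 starts, of Tnc, Postn and Cilp. Its first base lay 29, 28 and 30 bases before the start. No member window held it on the other strand. Of all 32851 windows of that length in the table, 1.13% held it on the gene's strand and 1.39% on either strand. The motif was picked after looking at the sequences. Tnc and Postn each have a second listed start without it. The windows below are the 100 bases before the start at chr4:64046937-64047036 (minus strand) for Tnc, chr3:54361007-54361106 (plus) for Postn and chr9:65265080-65265179 (plus) for Cilp, with the motif in capitals. Sparc, at chr11:55420081-55420180 (minus), is shown as the member that co-varied most closely with Tnc, and it lacks the motif.
Tnc: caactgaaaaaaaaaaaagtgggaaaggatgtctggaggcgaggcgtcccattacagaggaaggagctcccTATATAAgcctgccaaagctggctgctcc
Postn: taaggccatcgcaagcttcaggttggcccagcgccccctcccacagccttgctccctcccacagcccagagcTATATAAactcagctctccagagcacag
Cilp: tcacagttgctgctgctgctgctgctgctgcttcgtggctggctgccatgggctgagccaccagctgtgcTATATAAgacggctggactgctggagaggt
Sparc: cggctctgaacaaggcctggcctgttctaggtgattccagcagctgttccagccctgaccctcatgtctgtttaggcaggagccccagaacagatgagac

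The deposited values, called scores here, resemble log2 intensities in level (median 6.74) but hardly differ between arrays, and 93.5% of probe sets had a range under 0.001. A difference is therefore not a log2 fold change. Values below are each mouse's deviation from the gene's mean over 10 arrays, in thousandths of a score unit, and differences are given as Hedges' g, the maslinic acid mean minus the vehicle mean divided by the within-group SD and corrected for small samples, with its 95% confidence interval (n = 5 per group). The 10 genes had 10 distinct values each, and ranges between 1.70 thousandths (Tnc) and 22.2 thousandths (Thbs4). Their SDs over 10 arrays lay between 0.474 (Tnc) and 7.29 thousandths (Cilp), against a median SD over genes of 0.00880 thousandths. Vehicle replicates 3 and 5 stood apart over the whole table. Their limma array quality weights were 0.458 and 0.339 against 0.857 to 2.01 for the others, and among 6743 genes with 10 distinct values replicate 5 was the lowest array for 31.7% and the highest for 16.0%, and replicate 3 the lowest for 20.4% and the highest for 20.9%. Results are therefore also given without these 2 mice.

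Tenascins were measured by 1 probe set per gene. Tnc, tenascin C, had a mean score of 10.5. In vehicle mice 1 to 5 it deviated by -0.442, 0.114, -0.210, -0.200 and -0.921 thousandths, and in maslinic acid mice 1 to 5 by 0.202, -0.005, 0.291, 0.393 and 0.775. The groups overlapped through a single pair of mice, vehicle 2 and maslinic acid 2, and 4 of 5 treated mice lay above every vehicle mouse. The difference was g = 1.76 (95% CI 0.32 to 3.13), with an adjusted p of 0.488 in limma (unadjusted p = 0.0120) and an exact permutation p of 0.0159, two-sided, where the smallest possible is 0.00794. Without single mice g ran from 1.57 to 2.22, and without vehicle mice 3 and 5 it was 1.55. After quantile normalization it was 0.81.

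Tnxb, tenascin X, had a mean score of 7.46 and followed another pattern. Its deviations in vehicle mice 1 to 5 were 1.88, -1.80, -2.41, -0.332 and -2.24, and in maslinic acid mice 1.77, 0.682, 4.66, -1.50 and -0.707. Maslinic acid mouse 3 was far above all others, vehicle mouse 1 was the second highest, and the groups overlapped widely. Tnxb had g = 0.83 (-0.38 to 2.00) and a limma adjusted p of 0.658 (exact permutation p = 0.190). Without vehicle mice 3 and 5 it was 0.41.

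Fibronectin, osteonectin and periostin were each measured at scores above 10. Fn1 deviated by 0.309, -0.544, -0.821, 0.685 and -7.37 thousandths in vehicle mice 1 to 5, and by 1.89, -2.50, 4.25, 1.73 and 2.38 in maslinic acid mice. Vehicle mouse 5 was far below the rest, 4 treated mice were above all vehicle mice, and maslinic acid mouse 2 was the second lowest of all. The difference was g = 0.96 (-0.28 to 2.14; limma adjusted p = 0.621, exact permutation p = 0.135), and 0.59 without vehicle mice 3 and 5. A second Fn1 probe set, with a range of only 0.104 thousandths, correlated with the first at r = 0.86 (rho = 0.48) and had g = 0.02 (-1.10 to 1.14); the mean of both, scaled, gave 0.46.

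Sparc, a collagen-binding protein of bone and remodelling tissue, deviated by -0.225, 0.068, -0.171, 0.009 and -1.45 thousandths in vehicle mice and by 0.318, 0.067, 0.642, 0.191 and 0.555 in maslinic acid mice. As for Tnc, the groups met only where vehicle mouse 2 lay just above maslinic acid mouse 2. The SD was 2.59 times larger in vehicle mice, through vehicle mouse 5. Sparc had g = 1.35 (0.03 to 2.61), a limma adjusted p of 0.535 (unadjusted p = 0.0390) and an exact permutation p of 0.0159. Without vehicle mice 3 and 5, g was 1.62. The mean of its 3 scaled probe sets gave 0.90 (limma unadjusted p = 0.342). Another Sparc probe set of nearly the same pattern (r = 0.96) gave 1.16 (-0.12 to 2.38), and the last, with 6 distinct values in a range of 0.005 thousandths, gave -0.82 (-1.98 to 0.39).

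Postn, periostin, deviated by -2.23, 1.09, -2.32, 0.358 and -0.417 thousandths in vehicle mice 1 to 5 and by -0.689, 0.971, 0.006, 1.73 and 1.496 in maslinic acid mice. The groups overlapped. Vehicle mice 1 and 3 were lowest here, and vehicle mouse 5 lay between treated mice, above maslinic acid mouse 1. The difference was g = 0.97 (-0.26 to 2.16; limma adjusted p = 0.614, exact permutation p = 0.135), and 0.64 without vehicle mice 3 and 5.

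The thrombospondins are described in order. Thbs1 and Thbs2 had mean scores of 9.65 and 8.05. Thbs1, the thrombospondin of platelet granules that activates TGF-beta, deviated by 0.447, 0.035, 0.135, 0.061 and -2.13 thousandths in vehicle mice 1 to 5 and by 0.376, -0.385, 0.116, 0.886 and 0.461 in maslinic acid mice. The groups overlapped: the other 4 vehicle mice lay within the range of the treated mice, and vehicle mouse 5 far below it. Thbs1 had g = 0.65 (-0.53 to 1.79; limma adjusted p = 0.727, exact permutation p = 0.357). It was 0.24 without vehicle mice 3 and 5 and 0.01 after quantile normalization. A second probe set that names Thbs1 alone followed the first closely (r = 0.99, rho = 0.85) and gave 0.59 (-0.58 to 1.73).

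Thbs2, a fibroblast thrombospondin that limits vessel growth and takes part in collagen fibril assembly, deviated by 0.593, -2.16, -1.29, 0.605 and -3.97 thousandths in vehicle mice and by 0.064, 0.379, 2.18, 1.72 and 1.89 in maslinic acid mice. No treated mouse was below the 10-mouse mean, and vehicle mice 1 and 4 lay between the treated ones. The difference was g = 1.47 (0.11 to 2.76), with a limma adjusted p of 0.508 (unadjusted p = 0.0276) and an exact permutation p of 0.0476. Its 2 other probe sets, which correlated with the first at r = 0.92 and 0.94, both gave g = 1.61 (0.21 to 2.93). Without vehicle mice 3 and 5 the first gave 1.13 at an unadjusted p of 0.109.

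Thbs3 and Thbs4 belong to the pentameric thrombospondins, with cartilage oligomeric matrix protein. The mean score of Thbs3 was 6.69, the only member below the median of the value table (6.74), and that of Thbs4 was 9.83. Thbs3 deviated by 0.071, -0.085, -0.905, 0.094 and -1.08 thousandths in vehicle mice and by 1.07, -0.404, 0.651, 0.343 and 0.244 in maslinic acid mice, so that 4 treated mice were above all vehicle mice and maslinic acid mouse 2 lay among them. It had g = 1.24 (-0.06 to 2.48; limma adjusted p = 0.556, exact permutation p = 0.0794). Without vehicle mice 3 and 5 it was 0.69. Thbs4 had the widest range of the 10, though Cilp had a larger SD: it deviated by 5.29, 1.61, -12.4, -0.003 and -7.18 thousandths in vehicle mice and -1.34, 3.57, 9.80, -1.38 and 2.07 in maslinic acid mice. Vehicle mice 3 and 5 were lowest and the other vehicle mice lay among the treated ones. Thbs4 had g = 0.76 (-0.43 to 1.92; limma adjusted p = 0.682, exact permutation p = 0.230), and 0.05 without those 2 mice.

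Cilp, at a mean score of 8.01, had the smallest difference of the 10. It deviated by 11.9, -3.14, -9.81, -0.541 and -6.88 thousandths in vehicle mice 1 to 5 and by -2.68, 4.69, 6.52, -7.49 and 7.39 in maslinic acid mice. The highest mouse of all was vehicle mouse 1, and maslinic acid mouse 4 was the second lowest. Cilp had g = 0.41 (-0.74 to 1.53; limma adjusted p = 0.830, exact permutation p = 0.484), and -0.13 without vehicle mice 3 and 5.

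**Figure D1:**
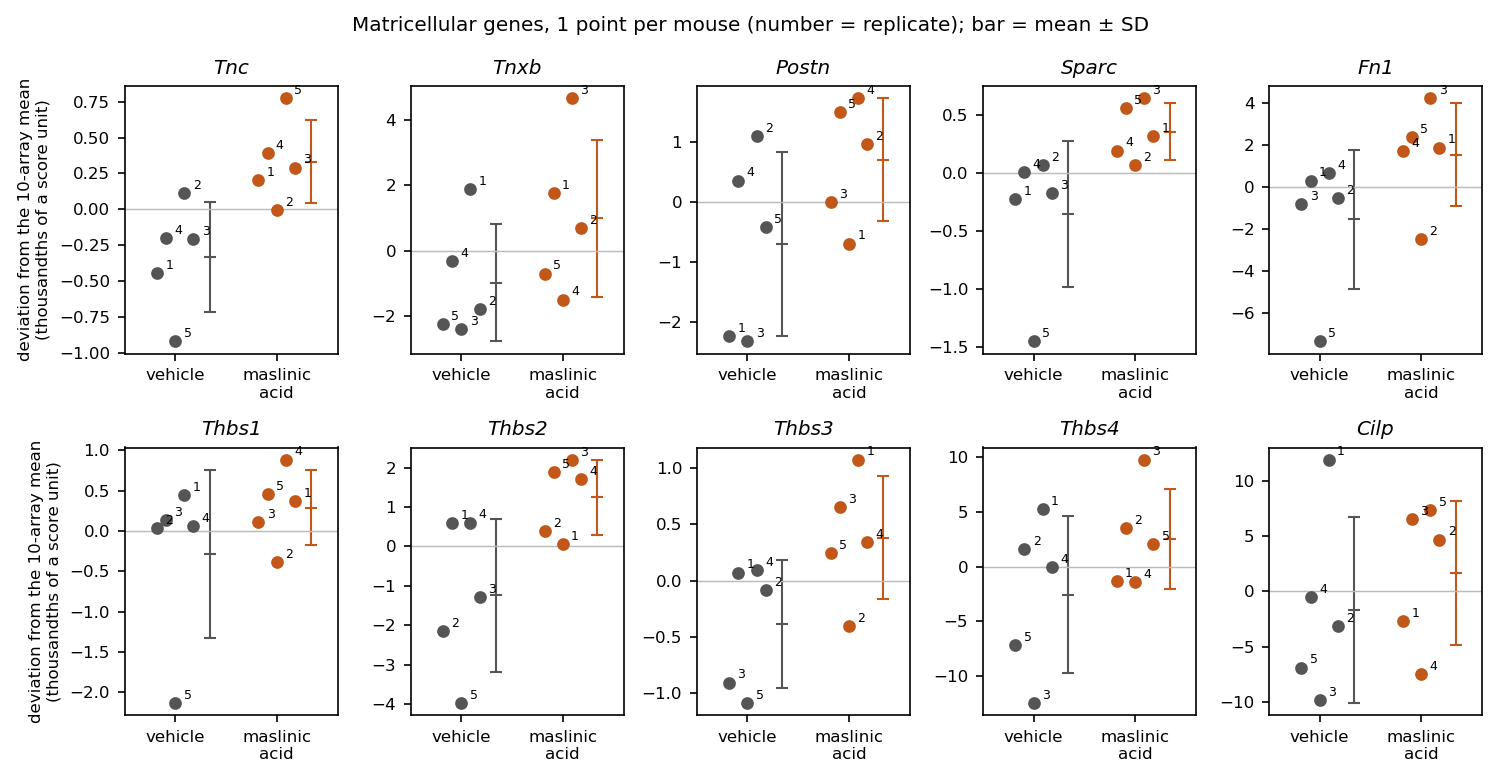
Deviation of each mouse from the gene's mean over 10 mice, in thousandths of a score unit (y axis, own scale per gene), for vehicle and maslinic acid mice (x axis, n = 5 each); numbers are replicates and bars give the mean ± SD. Tnc and Sparc overlap through 1 pair of mice, and vehicle mouse 5 is far below the others in Sparc, Fn1 and Thbs1.

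Read together against all genes, 0 of the 10 members had an adjusted p under 0.05 in limma, where 0% of probe sets did. At an unadjusted p under 0.05 there were 3, Tnc, Thbs2 and Sparc, all higher. Of all genes 8.83% had such a p, 4.29% higher and 4.54% lower, and of genes with 10 distinct values 11.4% did, 6.7% higher and 4.67% lower. The exact Wilcoxon test gave 2 at that level, Tnc and Sparc, and its share over all genes was not computed. The groups of 0 members did not overlap, against 1.38% of all genes and 2.06% of those with 10 distinct values. All 10 means were higher with maslinic acid, against 47.9% of all genes and 60.2% of genes with 10 distinct values, and the median g of 0.97 stands beside 0.23 for the latter. The direction of all genes depended on the scaling: 32.3% of genes with 10 distinct values were higher after quantile normalization and 36.2% with arrays centred on their medians, while all 10 members were higher in both. Since members moved together from mouse to mouse, the 10 directions are not 10 independent observations.

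Single mice moved these counts, and the shares over all genes moved too. Without maslinic acid mouse 2 there were 5 members at an unadjusted p under 0.05, where 11.2% of genes with 10 distinct values had one, and 4 members without overlap (Tnc, Sparc, Fn1 and Thbs3), where 5.06% of those genes had none. Without vehicle mouse 2 there were 2 members without overlap (Tnc and Sparc), beside 2.95% of those genes. Without maslinic acid mouse 3, 4 or 5 only 1 member was left at that p, Tnc, beside 7.37%, 9.24% and 7.61%. With vehicle mice 3 and 5 both left out, 9 of 10 means were higher, beside 53.6% of those genes, and the median g was 0.61. Tnc (limma unadjusted p = 0.0409) and Sparc (0.0345) stayed under 0.05, as did 8.53% of those genes.

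**Figure D2:**
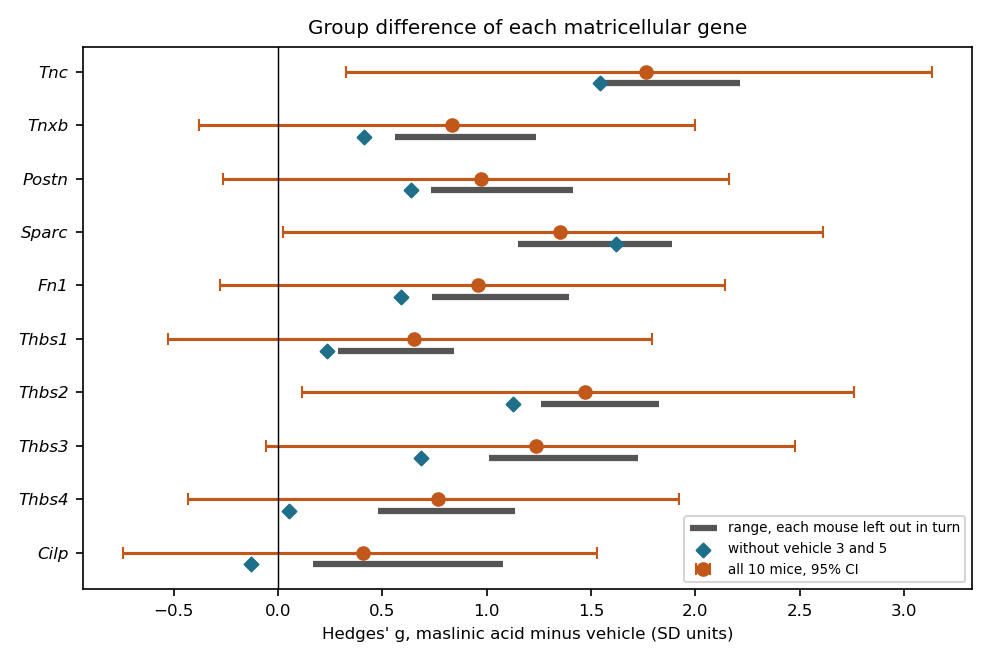
Hedges' g of maslinic acid minus vehicle for each gene (x axis, SD units within groups): circles and thin bars give g and its 95% confidence interval with all 10 mice, thick bars the range with each mouse left out in turn, and diamonds g without vehicle mice 3 and 5. Intervals of Tnc, Sparc and Thbs2 lie above 0, and the diamonds of Thbs4 (0.05) and Cilp (-0.13) lie close to 0.

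Within-group spread was also described. The SD was larger in vehicle mice for 9 of the 10 genes, all but Tnxb, and this held for 71.3% of all genes and 81.7% of genes with 10 distinct values. By mouse, vehicle 5 was below the 10-mouse mean in all 10 genes and the lowest of all in 6 (Tnc, Sparc, Fn1, Thbs1, Thbs2 and Thbs3). Vehicle 3 was the lowest in the remaining 4 (Tnxb, Postn, Thbs4 and Cilp). At the other end, maslinic acid 3 was above the mean in all 10 genes and the highest in 5 (Tnxb, Sparc, Fn1, Thbs2 and Thbs4); it was the highest array for 16.9% of genes with 10 distinct values.

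**Figure D3:**
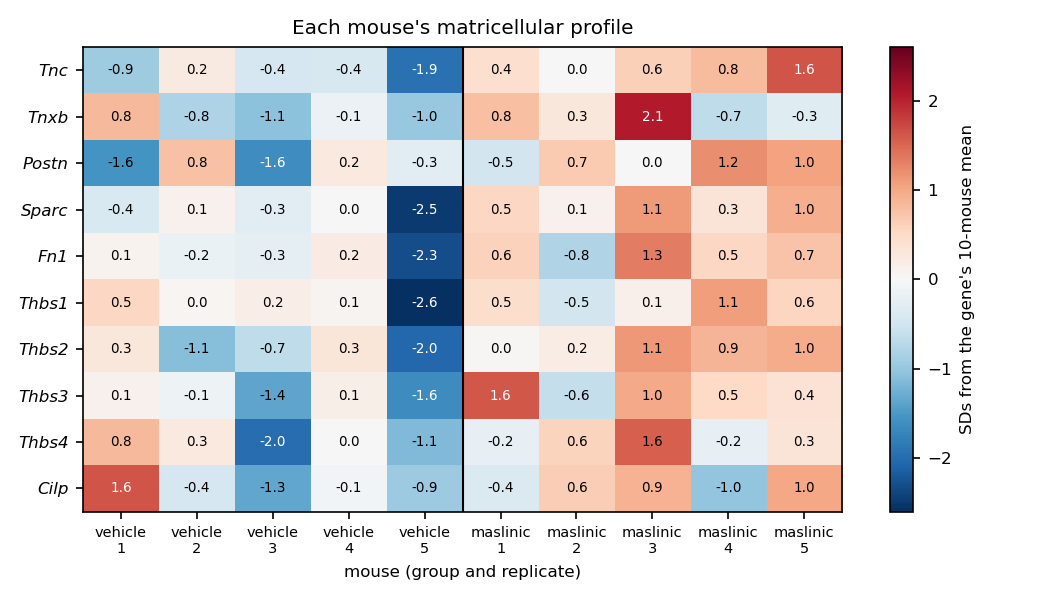
Each mouse's value of each gene (rows) as SDs from the gene's 10-mouse mean (colour and printed number), for 5 vehicle and 5 maslinic acid mice (columns). Vehicle mouse 5 has negative values in all rows and maslinic acid mouse 3 has none.

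Co-variation across mice was examined for all 45 pairs of members. The median Pearson r was 0.59, and 43 pairs were positive; 21 pairs (46.7%) had r of at least 0.6, against 14.3% of the 22730653 pairs among genes with 10 distinct values, whose median r was 0.02. After adjustment over the 45 pairs, 10 pairs had a permutation p of r under 0.05 and 7 had one of rho. The like share over all pairs of genes was not computed. Permutations ran over all 10 mice, so a difference between the groups enters r and its p. Within groups, after subtraction of each group's mean, the median r was 0.43, beside 0.02 over all pairs. Without vehicle mice 3 and 5 the median r was 0.31, beside -0.005 over all pairs. In that setting 7 member pairs had r of at least 0.6, and the share over all pairs was not computed. Without vehicle mouse 5 alone the median r of members was 0.45.

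Tnc and Sparc formed the pair with the lowest adjusted p (r = 0.90, rho = 0.94, permutation p = 0.000240 and 0.000210, adjusted 0.0108 for r). Their r was 0.81 without the 2 mice farthest from the Tnc median and 0.84 without vehicle mice 3 and 5. Sparc and Fn1 had the highest r (0.93, rho = 0.84, permutation p = 0.000870 and 0.00386, adjusted 0.0196 for r), which was 0.62 without the 2 farthest mice and 0.74 without vehicle mice 3 and 5. Fn1 and Thbs3 had r = 0.83 (rho = 0.93, permutation p = 0.00193 and 0.000430, adjusted 0.0217 for r), then 0.75 and 0.78. Fn1 and Thbs1 had r = 0.87 (rho = 0.65, permutation p = 0.00634 and 0.0490, adjusted 0.0357 for r). It was 0.82 without the 2 mice farthest from the Fn1 median and 0.54 without vehicle mice 3 and 5. Between Sparc and Thbs1, r was 0.83 (rho = 0.41, permutation p = 0.0363 and 0.249, adjusted 0.0922 for r), and only 0.29 and 0.12 in those settings, so that this relation rests on the mice left out. Within groups, over all 10 mice, r was 0.82 for Tnc and Sparc, 0.91 for Sparc and Fn1 and 0.76 for Fn1 and Thbs3. It was 0.85 for Fn1 and Thbs1 and 0.83 for Sparc and Thbs1.

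Thbs4 and Cilp had r = 0.82 (rho = 0.89, permutation p = 0.00184 and 0.00121, adjusted 0.0217 for r). It stayed at 0.82 without the 2 mice farthest from the Thbs4 median and was 0.74 without vehicle mice 3 and 5. Thbs4 and Tnxb had r = 0.78 (rho = 0.81, permutation p = 0.00741 and 0.00745, adjusted 0.0370 for r), then 0.57 and 0.74. Within groups r was 0.82 for Thbs4 and Cilp and 0.73 for Thbs4 and Tnxb. Postn had r under 0.6 with all other members. Its highest was 0.59 with Tnc (permutation p = 0.0712, adjusted 0.139), and its r with Cilp was -0.0015 over 10 mice and -0.52 without vehicle mice 3 and 5. Among the 8 mice left then, Tnc had r = -0.13 with Thbs4 and -0.22 with Cilp.

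**Figure D4:**
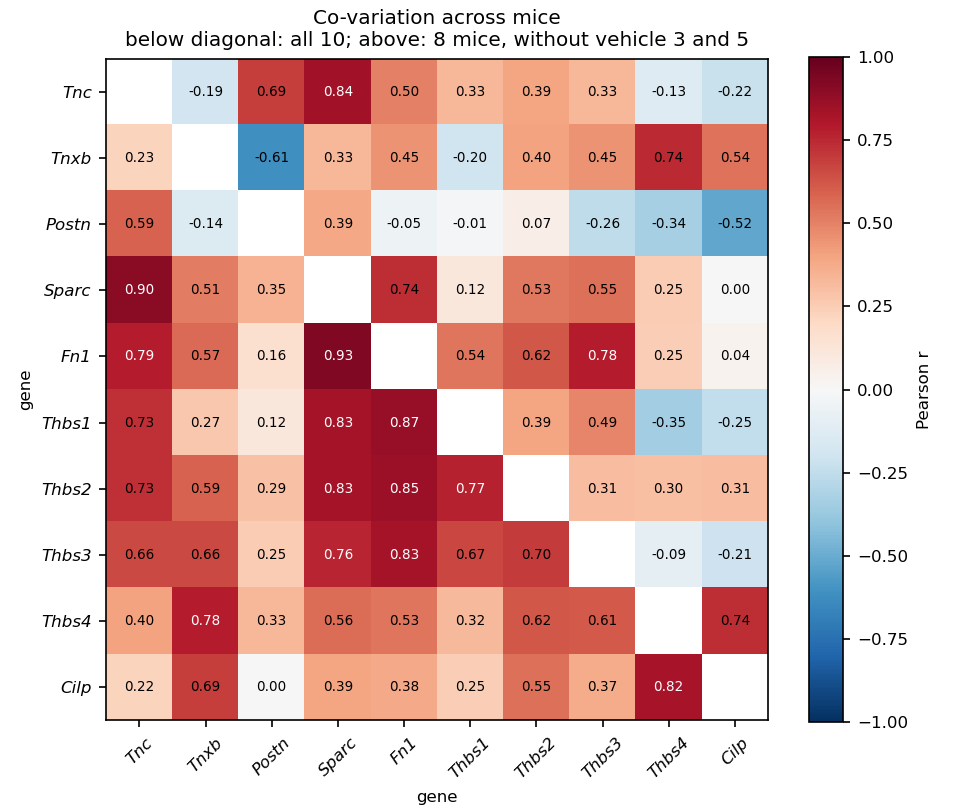
Pearson r between each pair of the 10 genes, below the diagonal over all 10 mice and above it over 8 mice, without vehicle 3 and 5 (colour and printed value). Tnc with Sparc (0.90 and 0.84) and Thbs4 with Cilp (0.82 and 0.74) are high in both, and Sparc with Thbs1 is high in 1 (0.83 and 0.12).

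**Figure D5:**
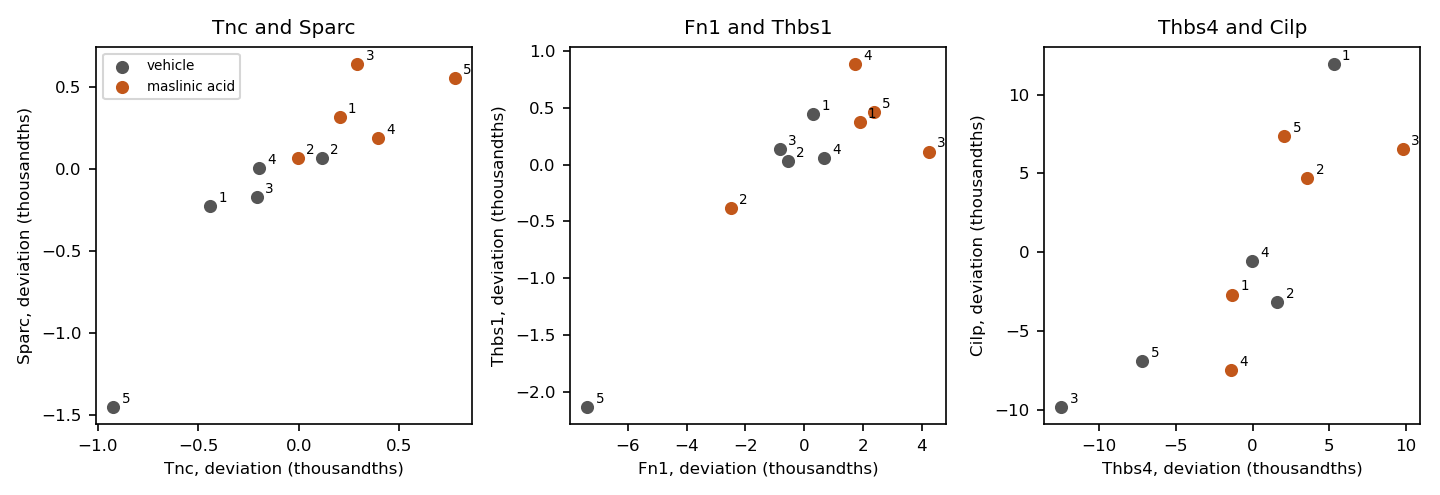
Deviations from the 10-mouse mean, in thousandths of a score unit, of 2 genes plotted against each other for 3 pairs; each point is a mouse, coloured by group and numbered by replicate. In the plot of Fn1 and Thbs1, vehicle mouse 5 is far from the other 9 mice, while Thbs4 and Cilp spread over the whole range.

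For each member, the 3 non-member genes of highest r were sought among 6733 genes with 10 distinct values. No p is given, because these are the highest of all the genes compared. Postn was closest to Mmp13, collagenase 3 (r = 0.98, and 0.98 without vehicle mice 3 and 5), Mt3, a metallothionein (0.98), and Ctsk, cathepsin K, the main collagen-degrading protease of osteoclasts (0.98). Tnc was closest to C1qtnf6, a C1q and TNF-related secreted protein (0.98, and 0.97 without those mice), Igsf3 (0.95) and Serinc5 (0.95). Fn1 was closest to Sf3b2, a splicing factor (0.98), Agrn, the basement membrane protein agrin (0.98), and Col6a3, a chain of collagen VI (0.98). The Sparc pattern was shared most by Cd109, a TGF-beta co-receptor (0.98), Sdc3, syndecan 3 (0.97), and Scpep1, a serine carboxypeptidase (0.97).

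Tnxb was closest to Gpc3, glypican 3 (0.96), Arhgef12 (0.96) and Apol6 (0.95). For Thbs4 these were Igfbp7, an IGF-binding matrix protein (0.97), Zcchc14 (0.97) and Dclk1 (0.97), and for Cilp Emp2, a membrane protein (0.93), Ltbp2, a latent TGF-beta binding protein of elastic fibres (0.92), and Adgrg2 (0.92). Thbs1 was closest to Parp4 (0.98), Epg5 (0.97) and Tbc1d5 (0.96, but 0.76 without vehicle mice 3 and 5). Thbs2 was closest to Stau1, an RNA-binding protein (0.98), Cat, catalase (0.95), and Insr, the insulin receptor (0.95), and Thbs3 to Mapk1ip1l (0.97), Prpf3, a splicing factor (0.94), and Jund, an AP-1 subunit (0.94).

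Related genes were counted from lists drawn up by function, and 0 of them passed limma's adjusted threshold. The counts stand beside 47.9% of all genes and 60.2% of genes with 10 distinct values that were higher. An unadjusted p under 0.05 in limma was found for 8.83% and 11.4% of these. Of 20 measured other matricellular proteins, 15 were higher and 5 lower, with a median g of 0.74 and 1 at an unadjusted p under 0.05, Spock2, a testican proteoglycan (1.55, 0.17 to 2.86). Ccn1 was at 1.25 (-0.05 to 2.49, 9 distinct values). Comp, of the same thrombospondin subgroup as Thbs3 and Thbs4, was at 0.69 (-0.50 to 1.84), and Ccn2, connective tissue growth factor, at 0.77 (-0.43 to 1.93).

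Receptors went both ways, and their balance depended on the scaling. Of 20 integrins, syndecans, scavenger receptors and others that bind these proteins, 14 were higher and 6 lower (median g = 0.48), against 7 and 8 after quantile normalization and 10 and 10 with arrays centred on their medians. An unadjusted p under 0.05 was found for 1 in each direction. Ptprz1, a receptor phosphatase that binds tenascins, was higher (1.89, 0.41 to 3.29), and Cd47, the receptor for the thrombospondin C-terminal domain, was lower (-1.81, -3.19 to -0.36; 9 distinct values). Their limma adjusted p-values were 0.476 and 0.488.

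Among 20 genes of matrix assembly and turnover 17 were higher and 3 lower (median g = 1.02), with 4 at an unadjusted p under 0.05, all higher. Plod2, a collagen lysyl hydroxylase, was at 1.81 (0.36 to 3.195) and Lox, lysyl oxidase, at 1.54 (0.16 to 2.85), while Col1a1 was at 0.95 (-0.29 to 2.13) and Mmp3, stromelysin 1, at 0.13 (-0.99 to 1.25). Of 19 TGF-beta signalling genes 17 were higher and 2 lower (0.67), but 8 were higher and 11 lower after quantile normalization, and 11 and 8 with centred arrays. Without these scalings 4 were at that level, all higher. They were led by Smad4 (3.22, 1.28 to 5.10, limma adjusted p = 0.418, 9 distinct values) and the ubiquitin ligase Smurf2 (2.44, 0.78 to 4.02). Their means differed by only 0.0236 and 0.0176 thousandths, against 0.663 for Tnc. Tgfb1, the ligand itself, was at 0.36 (-0.79 to 1.48).

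Markers of tissues and cells in or near the joint were set beside these results. The table has no detection calls; all 10 measured synovial fibroblast markers had a mean above the median level, as did all 10 skeletal muscle, all 10 cartilage, all 7 bone and all 8 neutrophil markers, and no gene of any list was at a score of 0. Mean scores of muscle markers ran from 6.87 (Myh2) to 13.3 (Acta1), and those of bone markers from 7.79 (Sp7) to 12.0 (Dmp1). For neutrophil markers they ran from 8.20 (Cxcr2) to 13.9 (S100a9), while Sparc, the highest member, was at 12.3. In bulk tissue, fewer cells of a type and less RNA per cell cannot be told apart. Neutrophil markers were lower with maslinic acid in 8 of 8 (median g = -1.03) and platelet markers in 7 of 7 (-1.22). Of all genes 48.3% were lower, and of genes with 10 distinct values 39.6%. The neutrophil count includes S100a8 and S100a9, with 2 distinct values each and means that differed by only -0.0002 and -0.0004 thousandths. Ngp differed by -0.0022 thousandths. After quantile normalization, which left many values tied, 2 neutrophil markers were lower and 1 higher, and 6 platelet markers were lower. The mean z-score of the neutrophil list ran from -0.002 to 1.43 in vehicle and from -0.977 to -0.252 in maslinic acid mice, and that of platelets from -0.338 to 1.61 and from -1.28 to 0.149. Their part in the members' differences was not tested. The leading neutrophil markers were the receptors Cxcr2 (g = -2.71) and Csf3r (-1.89), and those of platelets Gp6, a collagen receptor (-1.71), and Ppbp, a granule chemokine (-1.62).

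Higher means were found for 9 of 10 fibroblast (0.52), 6 of 8 tendon and ligament (0.43), 10 of 10 cartilage (0.61), 7 of 7 bone (0.98), 10 of 10 muscle (0.48), 7 of 8 macrophage (0.38), 6 of 8 endothelial (0.19), 6 of 8 smooth muscle and pericyte (0.59) and 6 of 6 adipocyte markers (0.59), with median g in brackets. Beside these counts, 47.9% of all genes and 60.2% of genes with 10 distinct values were higher, with a median g of 0.23 for the latter. The endothelial balance turned to 3 higher and 5 lower after quantile normalization and to 2 and 6 with centred arrays. After quantile normalization the higher and lower counts were 6 and 2 for fibroblast, 5 and 2 for tendon, 8 and 2 for cartilage and 5 and 0 for bone markers. They were 4 and 0 for muscle, 7 and 1 for macrophage, 6 and 2 for smooth muscle and 5 and 0 for adipocyte markers. The 2 genes of lowest p per list were Pdgfrb (1.52) and Cdh11 (1.24) for fibroblasts, Fmod (1.00) and Mkx (0.78) for tendon, Ucma (1.83) and Sox9 (1.53) for cartilage and Ibsp (1.46) and Sp7 (1.18) for bone. They were Ttn (0.85) and Myh4 (0.84) for muscle, Mertk (1.31) and Cd68 (0.75) for macrophages, Cdh5 (1.11) and Pecam1 (0.95) for endothelium, Myh11 (1.17) and Tagln (0.96) for smooth muscle and Lep (1.27) and Cidec (0.99) for adipocytes. The muscle score ran from -1.79 to 0.617 in vehicle and from -0.725 to 0.952 in maslinic acid mice. With it as a covariate Tnc was at 1.83, Sparc at 1.45, Thbs2 at 1.19 (limma unadjusted p = 0.0619) and Thbs4 at 1.02. Here g was rescaled from the fitted difference and the SD left after the covariate, so its scale is not quite that of g above.

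Member values were also set against the list scores over 10 mice, in 150 relations. After adjustment over all of them 33 had a permutation p of r under 0.05 and 18 one of rho. Of the 110 relations with a tissue or cell marker score, 12 were under 0.05 by r and 8 by rho. The like shares for all genes against these scores were not computed, so these counts have no background beside them. The 12 are given here, each with r without the 2 mice farthest from the member's median and r without vehicle mice 3 and 5. These permutations mixed both groups, so a shared group difference enters r and its p. Values of r within groups, after subtraction of each group's mean, close the 2 paragraphs below.

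Thbs4 had r = 0.92 with the synovial fibroblast score (rho = 0.88, permutation p = 0.000190 and 0.00162, adjusted 0.0157 and 0.0475), then 0.82 and 0.83. With the smooth muscle and pericyte score it had r = 0.90 (rho = 0.88, permutation p = 0.000760 and 0.00163, adjusted 0.0163 and 0.0475), then 0.73 and 0.79. Tnxb was under 0.05 with 3 scores. With smooth muscle and pericyte it had r = 0.87 (rho = 0.82, permutation p = 0.000600 and 0.00642, adjusted 0.0157 and 0.0507), then 0.72 and 0.83. With tendon and ligament it had r = 0.83 (rho = 0.81, permutation p = 0.00274 and 0.00745, adjusted 0.0306 and 0.0532), then 0.61 and 0.81, and with synovial fibroblast r = 0.77 (rho = 0.64, permutation p = 0.0100 and 0.0546, adjusted 0.0456 and 0.191), then 0.54 and 0.65. Thbs2 had r = 0.78 with smooth muscle and pericyte (rho = 0.77, permutation p = 0.00746 and 0.0120, adjusted 0.0377 and 0.0749), then 0.80 and 0.72. These 3 genes thus each had an adjusted p of r under 0.05 with the score of smooth muscle and pericyte markers. Cilp was just outside, with r = 0.71 (permutation p = 0.0175, adjusted 0.0655) and 0.74 within groups. Within groups, r of Thbs4 was 0.91 with synovial fibroblast and 0.90 with smooth muscle and pericyte. That of Tnxb was 0.85 with smooth muscle and pericyte, 0.80 with tendon and ligament and 0.69 with synovial fibroblast. For Thbs2 with smooth muscle and pericyte it was 0.62.

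Cilp had r = 0.84 with the tendon and ligament score (rho = 0.82, permutation p = 0.00326 and 0.00570, adjusted 0.0306 and 0.0475), then 0.89 and 0.85. With the cartilage score, a relation outside the 12, Cilp had r = 0.19 (permutation p = 0.595, adjusted 0.681). Bone markers went with Sparc (r = 0.85, rho = 0.85, permutation p = 0.000630 and 0.00278, adjusted 0.0157 and 0.0475; then 0.74 and 0.78) and with Tnc (r = 0.83, rho = 0.84, permutation p = 0.00361 and 0.00355, adjusted 0.0306 and 0.0475; then 0.56 and 0.67). Cartilage markers went with Fn1 (r = 0.78, rho = 0.85, permutation p = 0.00641 and 0.00335, adjusted 0.0370 and 0.0475; then 0.88 and 0.72) and with Thbs3 (r = 0.79, rho = 0.83, permutation p = 0.00741 and 0.00513, adjusted 0.0377 and 0.0475; then 0.53 and 0.81). Thbs3 also had r = 0.76 with endothelial markers (rho = 0.60, permutation p = 0.00958 and 0.0732, adjusted 0.0456 and 0.207), then 0.72 but only 0.27 without vehicle mice 3 and 5. Within groups, r was 0.84 for Cilp with tendon and ligament. With bone markers it was 0.73 for Sparc and 0.63 for Tnc. With cartilage markers it was 0.72 for Fn1 and 0.74 for Thbs3, and 0.75 for Thbs3 with endothelial markers.

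Postn and Thbs1 had no adjusted p under 0.05 with a marker score, and Thbs1 had r = 0.10 with the platelet score (permutation p = 0.782, adjusted 0.850). Within groups the r of Thbs1 with the platelet score was 0.50, which was not tested. With the muscle score, r of the members lay between -0.27 (Thbs4) and 0.31 (Thbs2). The other 21 relations were with the 4 pathway lists, the highest of them Sparc with the receptor list (r = 0.94, rho = 0.93, permutation p = 0.000490 and 0.000390, adjusted 0.0157 and 0.0292; then 0.70 and 0.73). Whether r differed between members or between lists was not tested.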

How the data were processed

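Total RNA of 10 synovia was labelled as biotin-cRNA and hybridised to Affymetrix mouse arrays, per the labels' protocols. The authors deposited 1 processed value per probe set and array, called a score here because the scale of its differences is unknown; the version R 3.2.1 appears in the submitters' processing notes. Background correction, normalization and summary were not given in the sources used here. Groups and replicate numbers come from the titles. Of 39993 probe sets, 34202 named 1 gene, 931 several and 4860 none. Maslinic acid was compared with vehicle over all probe sets by limma 3.58.1 under R 4.3.3 (lmFit, then eBayes; two-sided), with Benjamini-Hochberg adjustment and a threshold of 0.05. Single genes were tested over all 252 assignments of the arrays, and correlations with 100000 permutations (Python 3.11.15). Means that differed by less than rounding count in neither direction. List scores are means of z-scores over genes with 10 distinct values. Members, lists and rules for named genes (the members, their closest genes, the 2 of lowest p per list, and Comp, Ccn2, Tgfb1, Col1a1 and Mmp3) were chosen with earlier results of these data known. Whether the replicate numbers pair the mice is not known. Same-numbered mice correlated at -0.39 to 0.35, and so few correlations cannot decide it. For replicates 1 and 4 (r = 0.35 and 0.34) the vehicle mouse was closest to the treated mouse of its own number. For replicates 2, 3 and 5 it was not. Alternatives were the replicate block, the fit on 1 probe set per gene, a filter, 2 normalizations, other variance and weight settings, other probe sets, a muscle covariate, the Wilcoxon test and left-out mice. The fit was tested on simulated data.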

Additional observations from a re-analysis of the deposited data

Results flagged for a closer look

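In 3 of the 20 groups of 5 mice (10 genes, each in vehicle and in maslinic acid) the lowest mouse lay far from the others, by the gap to its nearest neighbour as a share of the group's range; about 1 in 20 groups is expected to do so by chance. It was vehicle replicate 5 in each case, for Thbs1 (gap 0.840 of the range), Fn1 (0.813) and Sparc (0.807). The same mouse was the lowest for 31.7% of genes with 10 distinct values and had the lowest array quality weight (0.339). Without it g was 0.29 for Thbs1, 0.76 for Fn1 and 1.89 for Sparc.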

How the results depend on the processing

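Adjusted p-values of the 10 genes stayed above 0.05 in every setting of the limma fit (0.357 or more). Of 209 values of g for single genes under alternatives, 208 kept their direction and stayed above the adjusted threshold. Only 1 changed sign, that of Cilp without vehicle replicates 3 and 5 (-0.13). Part of this agreement was fixed in advance. The fit on 1 probe set per gene, the filter and the changed variance setting reuse the main g, so only p could differ. Picking probe sets by how many different values they hold also returned the main g for all 10 genes. Averaging probe sets cannot alter g for a gene with 1 probe set. The replicate block cannot reverse a direction, since each replicate number has 1 mouse per group. Of the calls of Tnc, Thbs2 and Sparc at an unadjusted p under 0.05, the replicate block kept none. It left 1 gene, Postn (g = 1.71, with Tnc at 1.14), beside 8.65% of genes with 10 distinct values. In the block fit g uses the SD left after the replicate term, so its scale is not that of the main g. The values do not settle whether the numbers pair the mice. Quantile normalization left 1, Thbs2, beside 8.05% of those genes. The mean of scaled probe sets lost Sparc (0.90), and Thbs2 was lost with the muscle covariate (1.19), by the exact Wilcoxon test and without vehicle replicates 3 and 5 (1.13). Leaving out single mice gave 1 to 5 such genes, beside 7.37% to 16.7% of genes with 10 distinct values. It gave 0 to 4 whose groups did not overlap, beside 2.45% to 5.38% of those genes. With arrays centred on their medians 4 genes were under 0.05, Tnc, Thbs2, Sparc and Thbs3 (limma unadjusted p = 0.0302), beside 5.4%. There 1 gene did not overlap (Sparc), beside 0.771%. The median r over pairs was 0.31 without vehicle replicates 3 and 5 and 0.33 after quantile normalization; the cause was not tested. With 5 mice per group the intervals of all genes but Tnc, Sparc and Thbs2 include 0, and the unknown scale allows no fold changes.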
